A study of Mus musculus with 16 samples.

Results

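The genes described here encode the tricarboxylic acid (TCA) cycle, the pyruvate dehydrogenase complex with its regulators, and the mitochondrial oxidation of branched-chain amino acids. The list holds 36 genes, of which 14 belong to the TCA cycle, 8 to pyruvate dehydrogenase and 14 to branched-chain amino acid oxidation. Members were found by gene symbol in the platform annotation, among 16593 genes with a probe, and the probe with the highest mean over all arrays stood for each gene. A probe was found for 35 of the 36, and Mccc2 was not analysed here. Pdhx, a structural protein of the pyruvate dehydrogenase complex, and Hibch, a hydrolase of valine breakdown, lay below background on all 16 arrays and were not tested. The other 33 lay above background on all 16 arrays and were tested together with 9119 genes in all.

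RNA from the left ventricle of male C57BL6 mice was hybridised to 16 Illumina BeadChips, with 4 arrays in each of 4 groups. The series concerns mitochondrial function and uses the group given both agents as a model of heart failure without ischemia. The L-NAME+AngII group, called the combination here, received both agents. The AngII group received the pressor peptide angiotensin II for 4 weeks from a pump under the skin, at 0.7 mg/kg/day. The L-NAME group drank water with 0.3 mg/ml L-NAME, which blocks nitric oxide synthases, and 1% NaCl for 5 weeks. The control group received neither agent. All mice were 12 weeks old at assignment. Whether AngII and control mice drank salt is not stated in the labels, so L-NAME and salt cannot be told apart. Replicates are numbered in the labels with no statement that they were different mice. The p-values below therefore rest on the spread among these arrays, part of which may be technical.

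Pyruvate dehydrogenase links glycolysis to the mitochondria by turning pyruvate into acetyl-CoA, and the TCA cycle oxidises that acetyl-CoA to carbon dioxide while passing electrons to the respiratory chain. Branched-chain amino acids (leucine, isoleucine and valine) are first transaminated and then decarboxylated by the branched-chain ketoacid dehydrogenase complex, whose products end as acetyl-CoA or succinyl-CoA. Both dehydrogenase complexes are switched off by dedicated kinases and switched on by dedicated phosphatases. Heart muscle is rich in all of these enzymes, and lowered expression of branched-chain amino acid enzymes is a known feature of failing hearts.

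Values are log2 levels as the authors deposited them, with the same median of 6.90 on every array, and background was set at 7.13 on that scale. Precision is limited by having 4 arrays in each group. The 9 cardiomyocyte markers with a probe were above background on all 16 arrays, and their mean level per array was 13.46 to 13.65 in the combination, 13.54 to 13.68 with AngII, 13.57 to 13.65 with L-NAME and 13.57 to 13.68 in control ventricles. Array 4 of the combination stood apart: it was the array farthest from its group mean for 30.9% of all genes tested. Atrial genes (Myl4, Myl7 and Sln) were unevenly present, with a mean level of 9.17, 8.12, 10.55 and 7.81 on combination arrays 1 to 4, 6.94 to 7.73 with AngII, 7.09 to 7.68 with L-NAME, and 7.04 to 9.78 in control ventricles, the highest of these on control array 4. Fibroblast markers (6 of 6 with a probe) averaged 9.94 to 11.39 on combination arrays, 10.42 to 10.78 with AngII, 10.19 to 10.67 with L-NAME and 10.36 to 10.54 on control arrays. Smooth muscle and pericyte markers (5 of 5) averaged 9.80 to 10.27, 9.92 to 10.20, 9.82 to 10.20 and 9.52 to 9.71 in the same order. Between the combination and control 2 genes of all these lists were called, the cardiomyocyte troponin Tnni3 (-0.50, adjusted p = 0.0221) and the smooth muscle actin Acta2 (0.88, adjusted p = 0.00444). Endothelial markers (5 of 5) averaged 9.65 to 10.50 in the combination, 9.94 to 10.14 with AngII, 10.01 to 10.29 with L-NAME and 9.91 to 10.18 in control ventricles. Macrophage markers (4 of 6) averaged 9.96 to 10.93, 9.80 to 10.80, 10.04 to 10.38 and 10.49 to 10.85 in that order, so that the L-NAME arrays lay below the control arrays, and none of the 4 was called by limma in any comparison. Adipocyte markers (4 of 5) averaged 6.30 to 6.74 over all arrays, under the background level: Plin1 was above background on 0 arrays, Adipoq and Retn on 1 each, and Fabp4 on 14. The part of these marker levels in the results was not tested except where a fit with the atrial genes is named. Group means of the atrial genes were 8.91 in the combination, 7.26 with AngII, 7.34 with L-NAME and 7.94 in control ventricles. A fit with these genes may therefore also take up part of a group difference. In whole tissue, fewer cells of a type and less RNA per cell cannot be told apart. Arrays with replicate numbers 1 and 2 deviated together, as did those with 3 and 4, and values within each of these 2 sets are given where a result turns on them. Fits within a set hold 2 arrays per group and were added after the data were seen, so they are no separate test.

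In ventricles of mice given the combination, 29 of the 33 genes tested had a lower mean level than in control ventricles, most by little. Pdp2, a phosphatase that activates pyruvate dehydrogenase, was the member that passed the test (limma with Benjamini-Hochberg adjustment over all genes, threshold 0.05), and it was lower. That is 1 of 33 members, in a comparison in which 5.79% of all genes tested were called and 2.84% were called lower. The median difference of the 33 was -0.15, and that of all genes tested was -0.00478, of which 50.8% were lower. The share lower was 13 of 14 in the TCA cycle (median -0.11), 5 of 7 for pyruvate dehydrogenase (median -0.12) and 11 of 12 for branched-chain amino acid oxidation (median -0.21). An unadjusted p under 0.05 was reached by 6 of 33 members and by 21.4% of all genes tested. Without array 4 of the combination the same gene was called and the median was -0.13. Within replicates 1 and 2 the median was -0.23 and within replicates 3 and 4 it was -0.08. With the replicate number as a block, Sucla2 and Bckdk were called as well, which made 3 of 33, while the calls over all genes tested came to 8.64% with the block.

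**Figure D1:**
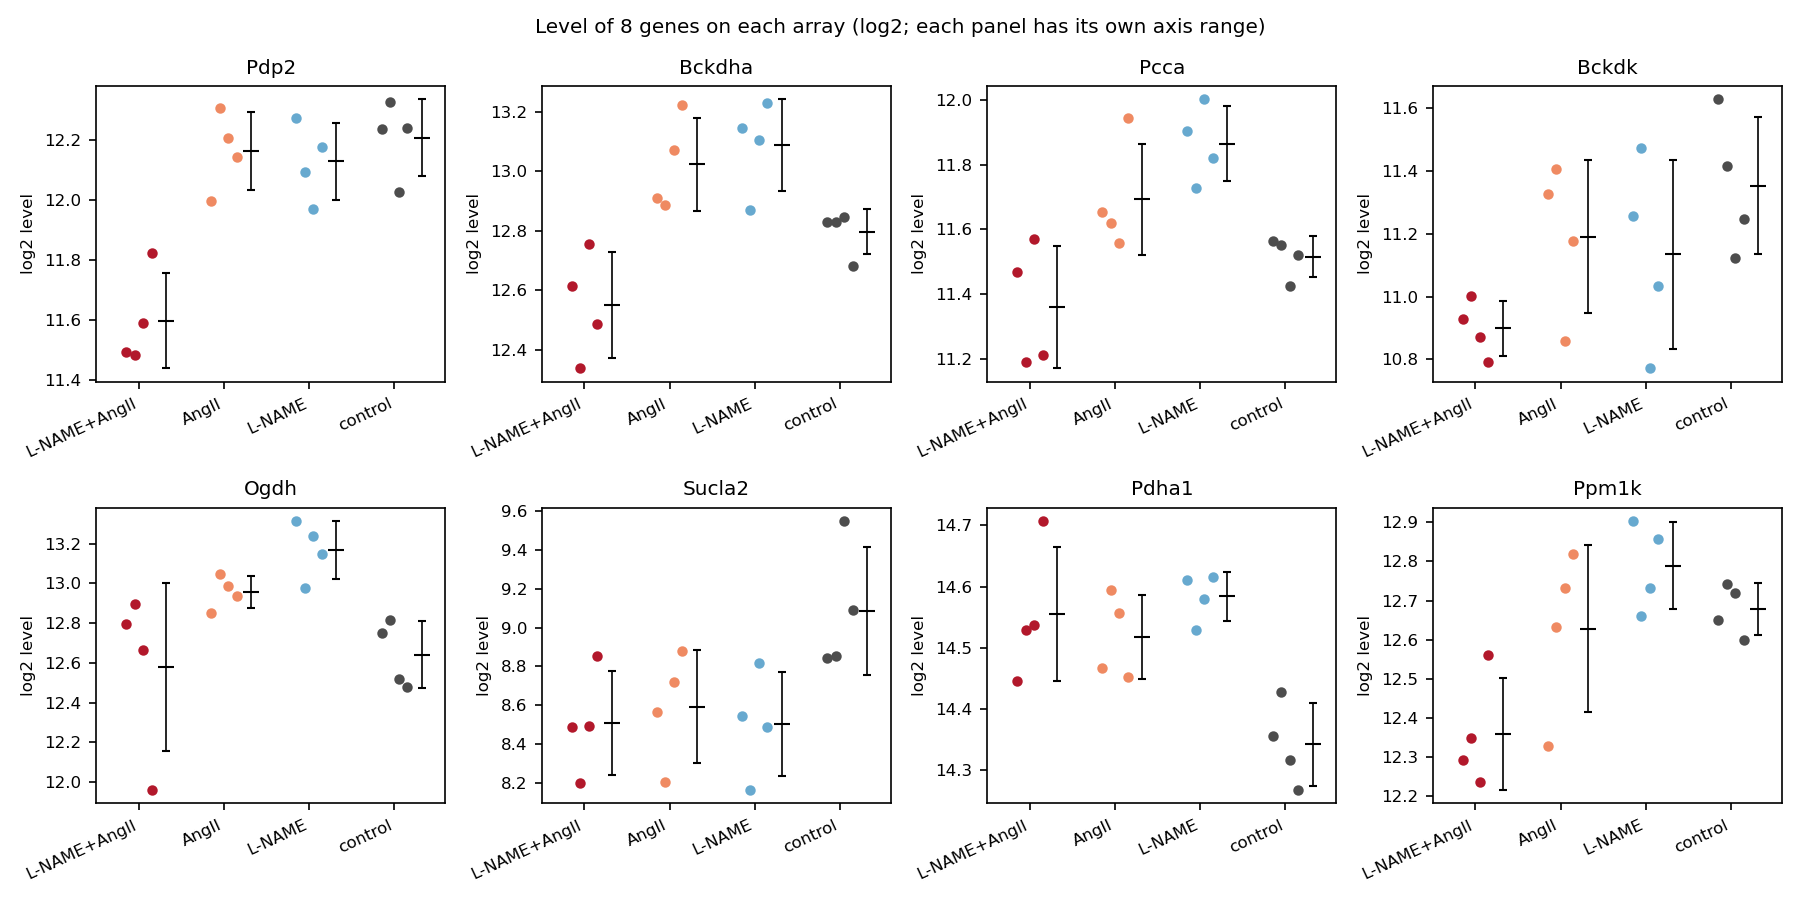
Level of 8 genes on each array. Each point is 1 array, the vertical axis is the log2 level with its own range in each panel, and the bar beside the points is the mean with 1 SD (n = 4). Pdp2 sits between 11.48 and 11.82 on the 4 combination arrays and between 11.97 and 12.33 on the 12 others. For Bckdha, Pcca and Ogdh all 4 L-NAME arrays sit above all arrays of the combination and of control.

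Pdp2 had levels of 11.49, 11.48, 11.59 and 11.82 in the combination, 11.999, 12.31, 12.21 and 12.14 with AngII, 12.28, 12.10, 11.97 and 12.18 with L-NAME, and 12.24, 12.33, 12.03 and 12.24 in control ventricles. All 4 combination arrays lay below every array of the other 3 groups. The mean was 11.60 ± 0.16 in the combination and 12.21 ± 0.13 in control ventricles (SD, n = 4 each), a log2 difference of -0.61 ± 0.11 (SE, 95% interval -0.85 to -0.37), which is 1.53-fold lower, with an adjusted p of 0.00672. AngII alone differed from control by -0.04 (adjusted p = 0.903) and L-NAME alone by -0.08 (adjusted p = 0.869). A dimmer probe of Pdp2 gave a difference of -0.93 between the combination and control (adjusted p = 0.00311 when every probe was tested), with 7.93 ± 0.19 in the combination and 8.85 ± 0.16 in control ventricles. The call against control was kept in each of the 16 fits that left out 1 array, with a range of adjusted p from 0.00196 to 0.0252. It was lost with only the 8 compared arrays (adjusted p = 0.0649) and within replicates 3 and 4 (difference -0.43, adjusted p = 0.337), and over all 29 alternatives the adjusted p ranged from 0.000406 to 0.337. Within replicates 1 and 2 the difference was -0.80 (adjusted p = 0.035).

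The upstream sequences of the 3 members that passed the test in any comparison are shown here, since these genes carry the calls. Each run is the 250 bases before an annotated RefSeq start on GRCm38.p6, and capitals mark the GC box GGGCGG, the CCAAT box, the E-box CACGTG and the nuclear receptor hexamer AGGTCA on either strand. RefSeq gave 1 start each for Pdp2 and Bckdha and 2 for Pcca.
Pdp2, chr8:104591222-104591471, plus strand: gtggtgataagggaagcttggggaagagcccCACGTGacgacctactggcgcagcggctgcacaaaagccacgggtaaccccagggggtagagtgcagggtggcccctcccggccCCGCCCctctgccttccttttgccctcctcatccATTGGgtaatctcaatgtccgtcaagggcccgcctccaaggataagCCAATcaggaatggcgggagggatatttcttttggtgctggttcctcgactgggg
Bckdha, chr7:25658762-25659011, minus strand: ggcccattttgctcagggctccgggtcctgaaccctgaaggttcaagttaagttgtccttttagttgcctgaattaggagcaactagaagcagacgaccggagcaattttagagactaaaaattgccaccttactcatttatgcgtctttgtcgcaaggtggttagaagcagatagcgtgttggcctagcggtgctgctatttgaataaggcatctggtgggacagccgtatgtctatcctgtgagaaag
Pcca, chr14:122484115-122484364, plus strand: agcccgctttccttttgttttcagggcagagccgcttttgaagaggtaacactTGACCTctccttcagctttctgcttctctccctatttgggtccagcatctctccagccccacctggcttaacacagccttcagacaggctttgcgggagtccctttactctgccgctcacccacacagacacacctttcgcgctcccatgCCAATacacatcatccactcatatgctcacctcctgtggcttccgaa
Pcca, chr14:122534078-122534327, plus strand: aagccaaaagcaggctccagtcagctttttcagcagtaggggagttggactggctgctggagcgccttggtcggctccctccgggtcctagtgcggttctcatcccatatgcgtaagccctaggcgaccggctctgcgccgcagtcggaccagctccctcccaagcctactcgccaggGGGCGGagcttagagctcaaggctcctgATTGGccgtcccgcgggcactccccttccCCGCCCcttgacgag

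The Pdp2 window holds 1 GC box, 2 CCAAT boxes and 1 E-box. In the Bckdha window 0 of the 4 motifs matched. The upstream Pcca window holds 1 CCAAT box and 1 AGGTCA hexamer, and the downstream window 2 GC boxes and 1 CCAAT box. Over the 43 windows of the 33 members that had one in the RefSeq table, a GC box was found in 51.2% and a CCAAT box in 53.5%, against 32.7% and 33.8% of all 32851 windows. The E-box was found in 14.0% of member windows and 6.02% of all windows, and the AGGTCA hexamer in 11.6% of member windows and 14.0% of all windows. Its extended form AAGGTCA, bound by estrogen-related receptors, was found in 0 of the 43 member windows and in 4.08% of all windows. The motifs were chosen after the expression values were seen, and a match describes letters, not binding.

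Among the pyruvate dehydrogenase genes, 1 of 7 fell in the combination relative to control, namely Pdp2 as described above, and 0 rose. Of all genes tested, 5.79% were called in this comparison, and 2.84% were called lower. Pdha1, the catalytic alpha subunit whose phosphorylation shuts the complex off, had levels of 14.45, 14.53, 14.54 and 14.71 in the combination, 14.47, 14.59, 14.56 and 14.45 with AngII, 14.61, 14.53, 14.58 and 14.62 with L-NAME, and 14.36, 14.43, 14.32 and 14.27 in control ventricles. All 12 arrays of treated mice lay above the 4 control arrays, but the differences of 0.21, 0.18 and 0.24 for the combination, AngII and L-NAME did not pass the test (adjusted p = 0.165, 0.376 and 0.305). Pdha1 was the 1 member of the 33 with every combination array above every control array, an order that 5.93% of all genes tested had. Dlat, the acetyltransferase core of the complex, had 12.15, 11.98, 12.14 and 11.75 in the combination and 12.19, 12.41, 12.21 and 12.24 in control ventricles, without overlap (difference -0.26 ± 0.12 SE, adjusted p = 0.24). Pdp1, the phosphatase related to Pdp2, had 10.28 ± 0.33 in the combination and 10.03 ± 0.13 in control ventricles (SD, n = 4 each), a difference of 0.25 (adjusted p = 0.356). Its levels were 10.21, 10.05, 10.10 and 10.77 in the combination and 10.04, 10.17, 9.85 and 10.06 in control ventricles. In fits that left out 1 array the difference lay between 0.09 and 0.33. The kinase Pdk2 differed by -0.14 between the combination and control (adjusted p = 0.672), with the control arrays spread from 9.68 on array 4 to 10.64 on array 3. Pdhb, the beta subunit, and the kinase Pdk1 differed by -0.12 and -0.04.

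Branched-chain amino acid oxidation had 0 of 12 genes called by limma in the combination relative to control, with 3 of 12 (Bckdk, Ppm1k and Pccb) at an unadjusted p under 0.05. Over all genes tested these shares were 5.79% and 21.4%. The enzymes and regulators of the pathway showed small differences of mostly 1 sign. Bckdk, the kinase that inhibits the branched-chain ketoacid dehydrogenase, had levels of 10.93, 11.0003, 10.87 and 10.79 in the combination, 11.33, 11.41, 10.86 and 11.18 with AngII, 11.26, 11.47, 10.77 and 11.03 with L-NAME, and 11.63, 11.41, 11.12 and 11.25 in control ventricles. The combination and control arrays did not overlap, and the difference was -0.45 ± 0.16 SE (adjusted p = 0.108, and 0.0246 with the replicate block, in a range of 0.0216 to 0.435 over 29 alternatives). A second Bckdk probe gave -0.55 (adjusted p = 0.0358 when every probe was tested). Ppm1k, the phosphatase that activates the same complex, had 12.29, 12.35, 12.24 and 12.56 in the combination and 12.65, 12.74, 12.72 and 12.60 in control ventricles, again without overlap (difference -0.32 ± 0.12 SE, adjusted p = 0.118). So the inhibitory kinase and the activating phosphatase lay on the same side of control. In total 5 of the 33 members had every combination array below every control array (Suclg1, Dlat, Pdp2, Bckdk and Ppm1k), an order found for 6.7% of all genes tested. For Suclg1 this held on 1 of its 3 probes.

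On their brightest probes, the catalytic subunits of the branched-chain complex and the enzymes after it stood closer to control. Bckdha, the alpha subunit of its decarboxylase, had 12.62, 12.34, 12.76 and 12.49 in the combination, 12.91, 12.89, 13.07 and 13.22 with AngII, 13.15, 12.87, 13.10 and 13.23 with L-NAME, and 12.83, 12.83, 12.85 and 12.68 in control ventricles. The arrays of AngII and of L-NAME all lay above those of the other 2 groups. Relative to control the differences were -0.25 for the combination (adjusted p = 0.238), 0.23 for AngII (adjusted p = 0.401) and 0.29 for L-NAME (adjusted p = 0.353). Pcca and Pccb, the subunits of propionyl-CoA carboxylase, differed by -0.16 and -0.30 in the combination relative to control (adjusted p = 0.477 and 0.161). Their second probes differed by -0.34 and -0.53 (adjusted p = 0.218 and 0.113 when every probe was tested), farther from control than Ppm1k. Bcat2, the mitochondrial transaminase that starts the pathway, had 9.31, 9.01, 9.68 and 9.75 in the combination and 9.21, 9.25, 8.72 and 9.95 in control ventricles. These groups overlapped widely (difference 0.15, 95% interval -0.34 to 0.65), and Bcat2 had the widest spread of the 33 within groups, a pooled SD of 0.35. The other 6 tested genes of the pathway (Bckdhb, Dbt, Ivd, Mccc1, Hibadh and Acadsb) differed by -0.28 to -0.01.

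The TCA cycle had 0 of 14 genes called by limma in the combination relative to control, with 1 of 14 (Sucla2) at an unadjusted p under 0.05. Of all genes tested, 5.79% were called in this comparison and 21.4% reached an unadjusted p under 0.05. Sucla2, the subunit of the ATP-forming succinyl-CoA ligase, had 8.49, 8.20, 8.50 and 8.85 in the combination, 8.57, 8.20, 8.72 and 8.88 with AngII, 8.54, 8.17, 8.82 and 8.49 with L-NAME, and 8.85, 8.85, 9.55 and 9.09 in control ventricles. Relative to control the differences were -0.58 for the combination (adjusted p = 0.0985, and 0.0205 with the replicate block, in a range of 0.0205 to 0.282 over 29 alternatives), -0.49 for AngII (adjusted p = 0.262) and -0.58 for L-NAME (adjusted p = 0.286). The combination differed by -0.09 from AngII and by 0.01 from L-NAME (95% intervals -0.50 to 0.33 and -0.41 to 0.42). Suclg1, the alpha subunit shared by both succinyl-CoA ligases, had 14.35, 14.22, 14.24 and 14.23 in the combination and 14.46, 14.35, 14.50 and 14.40 in control ventricles, a difference of -0.17 (adjusted p = 0.237). The groups did not overlap, although the unrounded margin between combination array 1 and control array 2 was small, and on both other Suclg1 probes they overlapped (differences -0.23 and -0.42, adjusted p = 0.281 and 0.44). Dld, the dehydrogenase subunit that the pyruvate, 2-oxoglutarate and branched-chain complexes share, had 11.48, 11.48, 12.02 and 12.16 in the combination and 12.14, 12.34, 12.15 and 11.96 in control ventricles. Its difference was -0.36 (adjusted p = 0.239), and the low arrays were replicates 1 and 2, within which the difference was -0.76 (adjusted p = 0.0312, in a range of 0.0168 to 0.958 over 29 alternatives), against 0.03 within replicates 3 and 4. That set of 2 arrays per group was added after the data were seen, so its adjusted p is not a separate test. Citrate synthase (Cs), the entry step of the cycle, had 13.57, 13.51, 13.56 and 13.32 in the combination and 13.76, 13.74, 13.72 and 13.36 in control ventricles (difference -0.15, adjusted p = 0.475), overlapping through control array 4. The isocitrate dehydrogenases Idh2, Idh3a, Idh3b and Idh3g, fumarase (Fh1) and the malate dehydrogenases Mdh1 and Mdh2 differed by -0.28 to -0.01. Suclg2 and Ogdh differed by -0.10 and -0.06, and Dlst by 0.06.

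**Figure D2:**
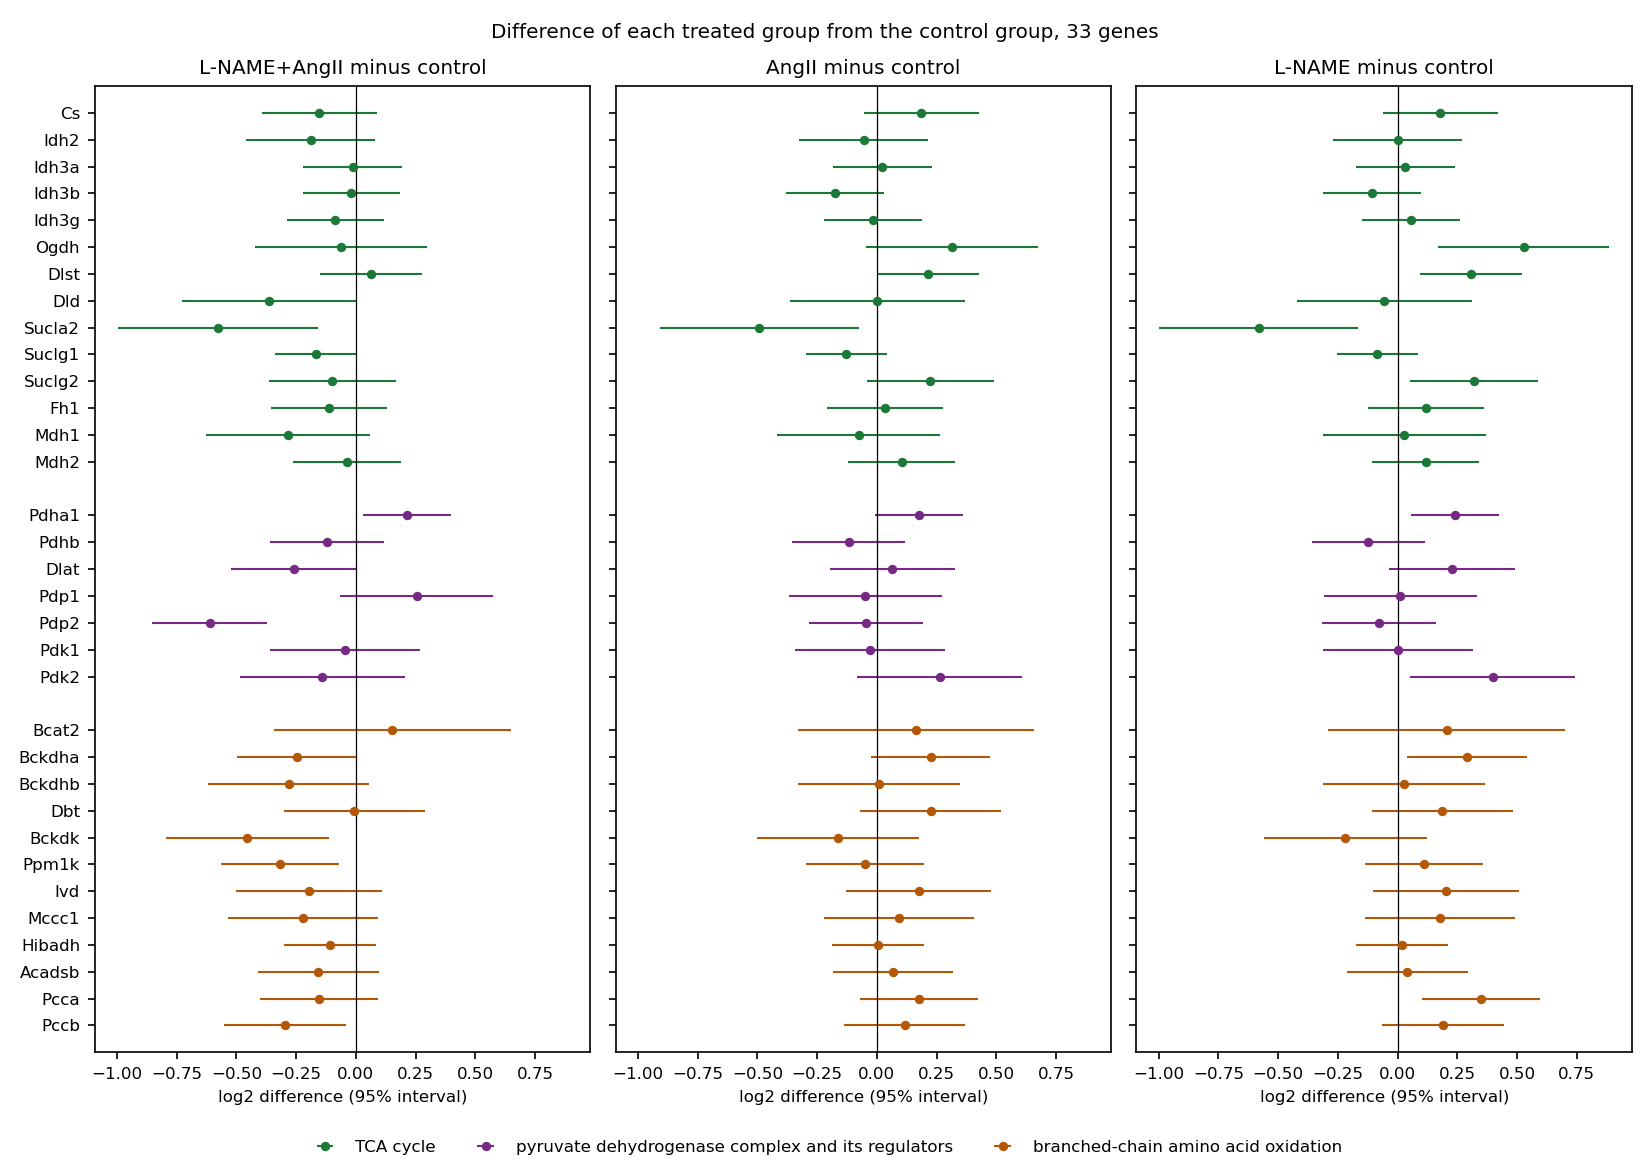
Difference of each treated group from control for the 33 genes tested. The horizontal axis is the log2 difference, points are estimates, lines are 95% intervals from limma, and colours give the pathway. In the combination the points lie left of 0 for 29 of 33 genes, with AngII for 12 and with L-NAME for 8.

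Given alone, neither agent gave a limma call among the members or among all genes tested without the replicate block. With it 0 members were called for either agent, while 0.614% of all genes (56) were called for AngII and 0% for L-NAME. For AngII against control 0 of 33 members were called, as were 0% of all genes, and for L-NAME against control again 0 of 33 and 0% of all genes. An unadjusted p under 0.05 was reached by 2 members with AngII and 8 with L-NAME (14.4% and 11.4% of all genes tested). The members' median difference from control was 0.04 with AngII and 0.11 with L-NAME, and all genes tested had a median of 0.01 in each. The median with AngII was 0.12 within replicates 3 and 4 and 0.01 within replicates 1 and 2. Ogdh, the decarboxylase of the 2-oxoglutarate dehydrogenase complex and a rate-setting step of the cycle, had 12.80, 12.90, 12.67 and 11.96 in the combination, 12.85, 13.05, 12.99 and 12.94 with AngII, 13.31, 12.98, 13.24 and 13.15 with L-NAME, and 12.75, 12.82, 12.52 and 12.48 in control ventricles. All arrays of either single agent lay above all control arrays, by 0.31 with AngII (adjusted p = 0.417) and 0.53 with L-NAME (adjusted p = 0.272). Every L-NAME array also lay above every control array for Dlst, the transferase of the same complex, and for Pdha1, Bckdha and Pcca, which with Ogdh makes 5 of 33, and 5.18% of all genes tested had this order. For AngII the members with this order were Ogdh, Pdha1 and Bckdha, 3 of 33, and 5.58% of all genes tested had it. On a second Pcca probe the L-NAME and control arrays overlapped (difference 0.06). The comparisons of the 3 treated groups share the control arrays.

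Set against each agent given alone, the combination stood lower for most members. Against AngII, 30 of 33 genes were lower, with a median of -0.23 (-0.01 over all genes tested, 51.5% of them lower). Against L-NAME, 29 of 33 were lower, with a median of -0.24 (-0.01 over all genes, 52.0% lower). These comparisons share the combination arrays. All 12 genes of branched-chain amino acid oxidation were lower in each, with medians of -0.29 and -0.35. Called genes were 1 of 33 against AngII (Pdp2, lower, with 0.735% of all genes called and 0.307% called lower) and 3 of 33 against L-NAME (Pdp2, Bckdha and Pcca, all lower, with 1.89% of all genes called and 0.801% called lower). Every combination array lay below every L-NAME array for 12 of 33 members, an order that 5.97% of all genes tested had, and below every AngII array for 5 of 33, which 4.32% of all genes had. An unadjusted p under 0.05 was reached by 12 of 33 members against AngII (15.5% of all genes tested) and by 13 of 33 against L-NAME (16.7%). With the replicate block 1.89% of all genes tested were called against AngII and 2.87% against L-NAME, and the called members were 2 against AngII, with Bckdha added (adjusted p = 0.0483, against 0.0712 without the block), and 4 against L-NAME, with Pccb added (adjusted p = 0.0285, against 0.0508 without it). Over 29 alternatives these adjusted p-values ranged from 0.0184 to 0.491 for Bckdha against AngII and from 0.0196 to 0.45 for Pccb against L-NAME.

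For Pdp2 the difference was -0.57 ± 0.11 SE against AngII (adjusted p = 0.0321) and -0.53 ± 0.11 SE against L-NAME (adjusted p = 0.0254). The dimmer Pdp2 probe was also called lower in each (-0.98 and -0.70). Against AngII the call was lost without combination array 1, 2 or 3 or without any single AngII array (adjusted p = 0.0803, 0.0798, 0.0571, 0.0528, 0.0987, 0.055 and 0.0919, in that order), with a term for the atrial genes (0.106), with only the 8 compared arrays (0.24) and within either set of arrays (0.114 and 0.493). Against L-NAME it was lost without combination array 1, 2 or 3, and without L-NAME array 1, 2 or 4 (adjusted p = 0.0691, 0.0577, 0.0551, 0.0949, 0.0592 and 0.0818), with the atrial term (0.091), with the compared arrays alone (0.131) and within either set (0.0872 and 0.497). The differences kept their sign in all 29 alternatives of both comparisons, from -0.67 to -0.47 against AngII and from -0.70 to -0.37 against L-NAME.

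Bckdha differed from L-NAME by -0.54 ± 0.12 SE (95% interval -0.79 to -0.29, 1.45-fold lower, adjusted p = 0.0302), with 12.55 ± 0.18 in the combination and 13.09 ± 0.15 with L-NAME (SD, n = 4 each). All combination arrays lay below all L-NAME arrays. The call was lost without combination array 1 or 2 and without array 1, 3 or 4 of L-NAME (adjusted p = 0.0568, 0.069, 0.0959, 0.0799 and 0.101), with the atrial term (0.0683), with the compared arrays alone (0.15) and within either set (0.169 and 0.366), while the difference stayed between -0.62 and -0.47 over 29 alternatives. Pcca had levels of 11.47, 11.19, 11.57 and 11.21 in the combination, 11.65, 11.62, 11.56 and 11.94 with AngII, 11.90, 11.73, 12.001 and 11.82 with L-NAME, and 11.56, 11.55, 11.43 and 11.52 in control ventricles. Its difference from L-NAME was -0.50 ± 0.12 SE (1.42-fold lower, adjusted p = 0.0391). This call was kept in 5 of 16 fits that left out 1 array: it was lost without combination array 1, 2 or 4, AngII array 1 or 2, any single L-NAME array, or control array 1 or 2 (adjusted p = 0.0588, 0.0817, 0.0682, 0.0552, 0.051, 0.115, 0.0575, 0.123, 0.0886, 0.0548 and 0.0564). The compared arrays alone gave no call either (adjusted p = 0.156), nor did either set (0.171 and 0.429). A second Pcca probe differed from L-NAME by -0.39 without passing (adjusted p = 0.219). Genes near the threshold against L-NAME were Pccb (-0.49, adjusted p = 0.0508), Dlat (-0.49, adjusted p = 0.0582), Ppm1k (-0.43, adjusted p = 0.0776) and Ogdh (-0.59, adjusted p = 0.095). A second Pccb probe gave -0.45 against L-NAME with overlapping groups (adjusted p = 0.252), and its differences from control were -0.53 for the combination, -0.13 for AngII and -0.08 for L-NAME, where the brighter probe gave -0.30, 0.12 and 0.19.

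The departure of the combination from the sum of both agents was tested as the interaction term, which is 0 where the combination differs from control by as much as the AngII and L-NAME differences added together. For 28 of the 33 genes the combination stood below that sum, with a median departure of -0.27 (-0.01 over all genes tested, 51.7% of them below). By pathway the departure was negative for 11 of 14 TCA cycle genes (median -0.25), 5 of 7 pyruvate dehydrogenase genes (median -0.20) and 12 of 12 genes of branched-chain amino acid oxidation (median -0.40). No departure passed the test after adjustment, among 33 members (0) or among all genes (0%). With the replicate block 0 members and 0.461% of all genes were called. An unadjusted p under 0.05 was reached by 14 of the 33 members, all below the sum, and by 16.4% of all genes tested, 9.15% below the sum and the rest above it. The median departure was -0.32 without array 4 of the combination and -0.24 without array 4 of control.

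**Figure D3:**
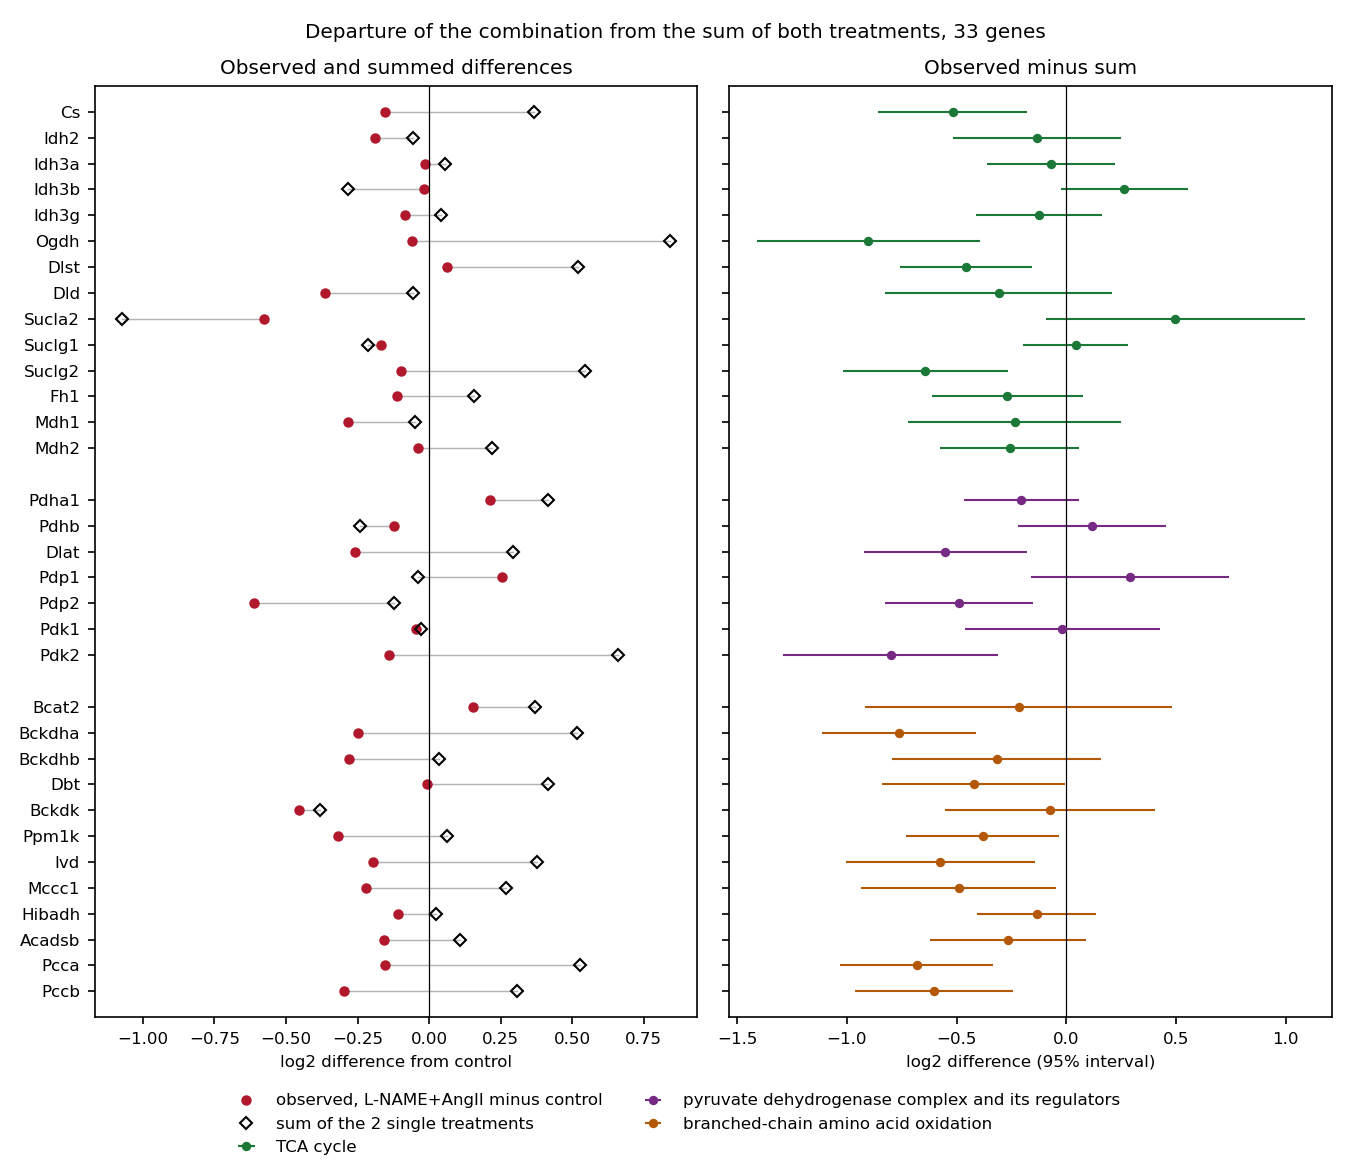
Departure of the combination from the sum of both agents for the 33 genes. In the left panel filled circles are the observed difference of the combination from control and open diamonds the sum of the AngII and L-NAME differences; in the right panel points are observed minus sum with 95% intervals, all on the log2 scale. For Ogdh the sum was 0.84 and the observed difference -0.06, and for Sucla2 the sum was -1.07 and the observed difference -0.58.

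Bckdha had the smallest adjusted p of the members in this test: AngII and L-NAME added to 0.52, the combination differed from control by -0.25, and the departure was -0.76 ± 0.17 SE (95% interval -1.12 to -0.41, adjusted p = 0.0703). For Pcca the sum was 0.53 and the departure -0.68 ± 0.16 SE (adjusted p = 0.0843). A second Pcca probe differed from control by 0.08 with AngII and 0.06 with L-NAME. Its departure was -0.48 (adjusted p = 0.3 when every probe was tested). The departure of Ogdh was -0.90 ± 0.24 SE (adjusted p = 0.103). It was -0.70 without array 4 of the combination, on which Ogdh stood at 11.96 against 12.67 to 12.90 on the other 3, and it was -0.46 within replicates 1 and 2 and -1.34 within replicates 3 and 4. The departure was -0.80 ± 0.23 SE for Pdk2 (adjusted p = 0.123), -0.64 for Suclg2, the subunit of the GTP-forming succinyl-CoA ligase (adjusted p = 0.114, but 0.43 with a dimmer second probe, adjusted p = 0.682), and -0.52 for Cs (adjusted p = 0.142). Control array 4 held the lowest control value of each of these genes (9.68, 12.32 and 13.36). In fits that left out 1 array the departure lay between -0.94 and -0.62 for Pdk2 and between -0.56 and -0.42 for Cs. Pdp2 differed in its pattern, since on its brighter probe each agent alone was close to control: its sum was -0.12 and its departure -0.49 ± 0.16 SE (adjusted p = 0.162). The dimmer Pdp2 probe differed from control by 0.06 with AngII and by -0.22 with L-NAME. On that probe the departure was -0.76 (adjusted p = 0.132 when every probe was tested). Sucla2 had the largest departure above the sum among the members, 0.50 ± 0.28 SE (95% interval -0.09 to 1.09, adjusted p = 0.392), and Bckdk departed by -0.07 (adjusted p = 0.919).

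Averaged over the members, the difference was spread over all 4 combination arrays. The mean departure of the 33 genes from their control means was -0.14, -0.26, -0.11 and -0.11 on combination arrays 1 to 4, 0.02, 0.08, -0.03 and 0.11 on AngII arrays, 0.16, 0.02, 0.09 and 0.10 on L-NAME arrays, and 0.06, 0.04, 0.00 and -0.10 on control arrays. The combination arrays were the 4 lowest, with control array 4 just above them. For the TCA cycle the combination arrays lay between -0.20 and -0.10 and control array 4 at -0.12, within their range, while the other 3 control arrays lay between 0.03 and 0.05. For branched-chain amino acid oxidation the combination arrays lay between -0.36 and -0.10 and the control arrays between -0.06 and 0.11. These groups did not overlap, but the gap was narrow beside their SDs of 0.12 and 0.08. Pyruvate dehydrogenase genes overlapped, from -0.23 to 0.06 in the combination and from -0.16 to 0.10 in control ventricles. Control array 4, which also had the highest atrial genes of its group, was the array farthest from its group mean for 6 of 33 members (18.2%, against 6.23% of all genes tested), and combination array 4 for 8 of 33 (24.2%).

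**Figure D4:**
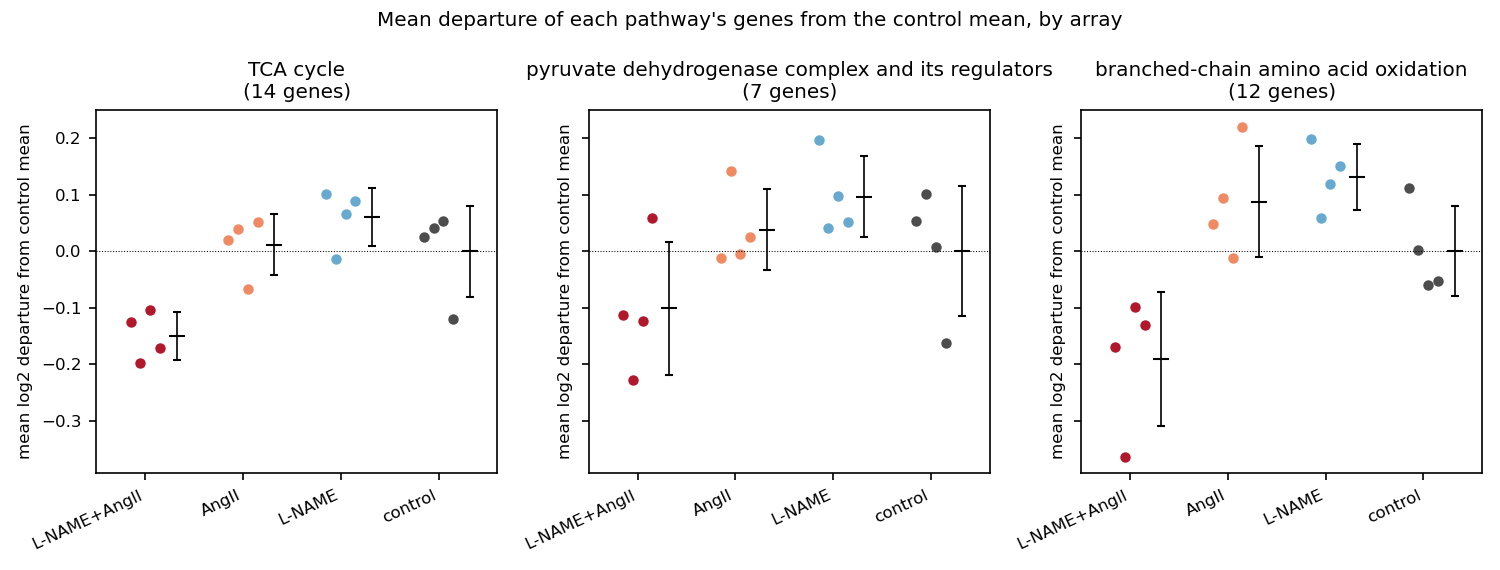
Mean departure of each pathway's genes from their control means, by array. Each point is 1 array, the vertical axis is the mean log2 departure over 14, 7 or 12 genes, and the bar is the group mean with 1 SD (n = 4). The combination arrays average -0.15 for the TCA cycle, -0.10 for pyruvate dehydrogenase and -0.19 for branched-chain amino acid oxidation. In the first panel 1 control array lies within their range, and in the second the groups overlap. In the third a narrow gap, from -0.10 to -0.06, separates combination and control arrays.

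Related genes outside the list were counted in the same fit. Over its 6 comparisons 0% to 5.79% of all genes tested were called. Between the combination and control 21.4% of all genes tested reached an unadjusted p under 0.05. Of 16 other TCA cycle and anaplerosis genes 12 were tested, and 0 were called by limma in any of the 6 comparisons (2 of 12 at an unadjusted p under 0.05 between the combination and control). Their median difference between the combination and control was -0.13, with 7 of 12 lower. Of 10 other pyruvate dehydrogenase genes 7 were tested and 0 called by limma in any comparison (0 of 7 at an unadjusted p under 0.05 between the combination and control, median 0.07 between the combination and control, 3 of 7 lower). Pdk4, the kinase of pyruvate dehydrogenase that responds to fasting and fatty acids, had 14.72, 14.59, 14.82 and 11.85 in the combination and 14.72, 14.69, 14.88 and 14.56 in control ventricles, so 1 combination array set its difference of -0.72 (adjusted p = 0.4).

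Among 17 other branched-chain amino acid genes 14 were tested, and 1 rose and 1 fell in the combination relative to control, with 0 called by limma in the other 5 comparisons (1 to 4 of 14 at an unadjusted p under 0.05). Their median difference between the combination and control was 0.09, with 5 of 14 lower, unlike the listed members of this pathway. An unadjusted p under 0.05 was reached there by 4 of 14, and by 21.4% of all genes tested. Over all genes tested 5.79% were called between the combination and control, 2.84% lower. In the other 5 comparisons 0% to 1.89% of them were called and 11.4% to 16.7% reached an unadjusted p under 0.05. Slc7a5, the plasma membrane carrier of large neutral amino acids, had 9.76, 9.45, 9.89 and 10.80 in the combination, 9.70, 9.43, 9.43 and 9.70 with AngII, 9.43, 9.02, 9.84 and 9.45 with L-NAME, and 8.80, 8.78, 8.77 and 8.65 in control ventricles. It rose by 1.23 ± 0.23 SE in the combination (adjusted p = 0.00738), and all 12 arrays of treated mice lay above all control arrays. Mmab makes the cobalamin cofactor of methylmalonyl-CoA mutase, an enzyme that acts downstream of propionyl-CoA carboxylase. Mmab had 9.08, 9.29, 9.12 and 8.42 in the combination, 9.69, 9.96, 9.36 and 9.76 with AngII, 10.02, 9.99, 9.55 and 9.61 with L-NAME, and 9.95, 9.95, 9.33 and 9.59 in control ventricles. Mmab fell by 0.73 on the log2 scale in the combination (adjusted p = 0.047), and all combination arrays lay below all others. Klf15, a regulator of branched-chain amino acid genes, and Bcat1, the cytosolic transaminase, differed by 0.36 and 0.15 between the combination and control (adjusted p = 0.471 and 0.836).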

How the data were processed

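Total RNA was extracted, its quality checked and biotinylated cRNA prepared, per the labels' protocols. Per the submitters' processing notes the software included GenomeStudio and lumi with versions not stated. The log2 intensities of 25697 probes were used as the authors deposited them. Their sorted columns differ by at most 0.00132, so they had been quantile normalised. No source used here gives the exact transform behind the log2 scale or says if background was removed, which matters most for fold changes of dim probes. Another 64 columns of per-sample values, named after no label, were left out.

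A single gene symbol was annotated for 23978 probes, several for 0 and none for 1719. As background the 95th percentile of 1362 chemosensory receptor probes was taken. A probe had to exceed it on 4 or more arrays (13020 did), and each of 9119 genes was read from its brightest such probe. limma 3.58.1 in R 4.3.3 estimated 4 group means from the 16 arrays with moderated variances, and p-values were adjusted by Benjamini-Hochberg over all genes (threshold 0.05). Contrasts were the combination, AngII and L-NAME each against control, the combination against AngII and against L-NAME, and the interaction. The fit was run on simulated data with noise independent between arrays, so that check does not cover arrays that deviate together. Promoter windows are RefSeq's. Figures were drawn with matplotlib 3.10.9 (Python 3.11.15).

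Members and gene lists were chosen with earlier results of these data known. Named with values were members called in any comparison, in each pathway the 3 further members with the smallest adjusted p against control and the member with the strongest interaction, and Cs, Ogdh, Pdha1, Bcat2, Bckdha, Bckdk and Ppm1k. Groups share replicate numbers in the labels. Residuals of same-numbered arrays correlated with r of 0.115 to 0.452 over 24 pairs (median 0.281). The main fit did not pair the arrays, and the replicate number entered only as a block in an alternative fit. For unlike numbers the median r was 0.232 inside the sets 1 and 2 or 3 and 4, and -0.258 between these sets. The labels name no batch. Alternatives were other filters, every probe by itself, other variance models, array weights, the block, the set of arrays as a term, cyclic loess, median centring, an atrial covariate, fits of fewer arrays and each array left out in turn.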

Additional observations from a re-analysis of the deposited data

Results flagged for a closer look

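In 84 groups of 4 arrays looked at, 4 values lay apart from the other 3 by Dixon's criterion at 95%, where chance gives about 1 in 20 groups. Suclg1 stood at 14.35 on combination array 1, against 14.22 to 14.24 on the other combination arrays. On control array 4, Bckdha stood at 12.68 (12.83 to 12.85 on the other control arrays), Cs at 13.36 (13.72 to 13.76) and the mean departure of the TCA cycle genes from their control means at -0.12 (0.03 to 0.05). Control array 4 also had the highest atrial genes of its group, and the part of these in its values was not tested.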

How the results depend on the processing

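The number of members called for the combination against control (1) was 2 with a trended robust variance, 5 with array weights, 3 with the replicate block, 3 with the set of arrays as a term, 0 with the compared arrays alone, 2 within replicates 1 and 2 and 0 within replicates 3 and 4, and it was 1 in every fit without 1 array. Against AngII (1) it was 2 with the stricter filter, the trended variance, the block or the set term, 0 with the atrial term, the compared arrays alone or either set alone, and 0 to 1 without 1 array. Against L-NAME (3) it was 6 with the stricter filter, 8 with the trended variance, 9 with array weights, 5 with the set term, 1 with the atrial term, 0 with the compared arrays or either set alone, and 0 to 4 without 1 array. For the interaction (0) it was 2 with the stricter filter, 6 with the trended variance, 4 with array weights and 1 with the set term.

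All genes called for the combination against control (528) were 717 with the trended variance, 1106 with weights, 788 with the block, 834 with the set term, 82 with the compared arrays, 276 and 0 within the sets, and 248 to 580 without 1 array. For AngII against control (0) they were 7 with no filter, 26 with the stricter filter, 138 with the trended variance, 177 with weights, 56 with the block, 49 with the set term, 17 after median centring, 13 with the atrial term and 0 to 137 without 1 array. For L-NAME against control (0) they were 41 with weights. For the combination against AngII (67) they were 138, 168, 293, 172 and 178 with the stricter filter, trended variance, weights, block and set term, 3 with the atrial term, 3 with the compared arrays, 40 and 0 within the sets, and 20 to 119 without 1 array. Against L-NAME (172) they were 280, 478, 262 and 293 with the trended variance, weights, block and set term, 67 with the atrial term, 51 with the compared arrays, 72 and 0 within the sets, and 82 to 216 without 1 array. For the interaction (0) they were 93, 156, 179, 42, 80 and 6 with the stricter filter, trended variance, weights, block, set term and median centring, and 0 to 51 without 1 array.

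The members' median kept its sign in every comparison and alternative run. It was 0.12 for AngII within replicates 3 and 4 and -0.36 for the interaction with array weights, and without 1 array the interaction's median lay between -0.35 and -0.21. Named members kept their side of the threshold in 2679 comparisons of a fit with its alternative, lost a call in 46 and gained one in 43. No called difference changed sign, and 56 differences that passed in neither fit did, Dld against control within replicates 3 and 4 among them. The cause of these changes was not tested. The atrial term, cyclic loess, median centring and the set term were listed with earlier results known, and the 2 sets alone were added after seeing the data. The block changed no call of a named member other than those given for Sucla2, Bckdk, Bckdha and Pccb.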
